A study of Arabidopsis thaliana with 8 samples.

Results

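In seeds of Arabidopsis thaliana, a set of transcripts stood clearly lower after a day of imbibition in the cold than after a day in the warm. A probe set, the group of oligonucleotides that reads 1 transcript on an Affymetrix array, was a member if its highest intensity on the 4 arrays at 4 °C was at most 66.7% of its lowest intensity on the 4 arrays at 22 °C, with a mean of at least 20 at 22 °C and both genotypes pooled. Of 22746 probe sets, 10029 reached that mean and 118 met the rule, which is 1.18% of them. Of these, 11, among them the small heat shock gene HSP23.5, were left out by name, and 107 probe sets remained. The members were thus chosen by the same intensities, so their difference between the temperatures is described here and not tested. The mirrored rule, for higher levels at 4 °C, was met by 188 of 10374 probe sets (1.81%). Both counts are on the deposited intensities without further scaling. After scaling to a common median 156 probe sets remained in place of 107, and the mirrored rule was not repeated. The counts therefore do not show which direction was the more common.

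The 8 arrays, 1 per sample, came from 4 groups of 2. Wild-type Col-0 seeds and seeds of 35S-GSH1, an overexpressor of GSH1 in the Columbia background, were each imbibed for 24 h at 22 °C, without vernalization, or for 24 h at 4 °C, with vernalization. GSH1 encodes glutamate-cysteine ligase, which begins the synthesis of glutathione, and the 35S promoter of a plant virus drives expression in most plant cells. The probe set table used pairs none with GSH1, so its level was not analysed here. Genotypes are those of the labels. How many 35S-GSH1 lines and seed lots were used is not stated. Array medians lay between 12.3 and 16.2 intensity units, and the Pearson correlation between the replicates of a group, across genes, was 0.962 to 0.972. Nothing says that the replicates were separate seed batches, so every p-value below rests on a spread that may be technical only. Of 14 seed markers 1 had a listed probe set, the oleosin gene OLEO3, with 489 to 665.6 at 22 °C and 617 to 735.9 at 4 °C. Of 9 leaf markers 2 had one (LHCB4.1 and RCA), and their summed intensity was 260.5 to 291.5 at 22 °C and 378.2 to 458.2 at 4 °C. The rise was that of LHCB4.1, with means of 253 at 22 °C and 376 at 4 °C, while RCA had 27.3 and 30.45. Of 7 seed coat and endosperm markers 1 had one (BAN), with 0.5 to 6.8 at 22 °C and 0.4 to 0.7 at 4 °C. The part of these cell types in the differences below was not tested.

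As a dry seed takes up water it restarts respiration, protein synthesis and the breakdown of its reserves, and at a permissive temperature it moves towards the emergence of the root. Cold imbibition slows these processes, and a period of moist cold is known to release dormancy. Oxygen enters a seed slowly through the coat, and plants sense a shortage of it through transcription factors of the ethylene response factor family that are degraded while oxygen is present. When they are stable they switch on a core set of low-oxygen genes, and HRA1 restrains one of them. All seeds were sampled at 24 h, so the stage they had reached and a response to the temperature itself cannot be told apart. In RNA from whole seeds, fewer cells of a type and less RNA per cell cannot be told apart either.

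Across the 107 members the ratio of the mean at 22 °C to the mean at 4 °C had a median of 2.76, with quartiles of 2.26 and 3.94 and a range from 1.73 to 21.2. It was at least 2 for 94 members and at least 4 for 25. The lowest array at 22 °C exceeded the highest array at 4 °C by at least 2 times for 42 members, by at least 3 times for 11 and by at least 5 times for 5. For 7 members the mean at 4 °C lay below 6.26, the intensity under which probe sets were not tested, and the size of their ratio is uncertain. Of the 107 members 42 were paired with 1 gene, all of them nuclear, 2 with several genes and 63 with none listed. The ratios of the 42 named members had a median of 2.65 and reached 6.86, and those of the other 65 had a median of 2.85 and reached 21.2.

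**Figure D1:**
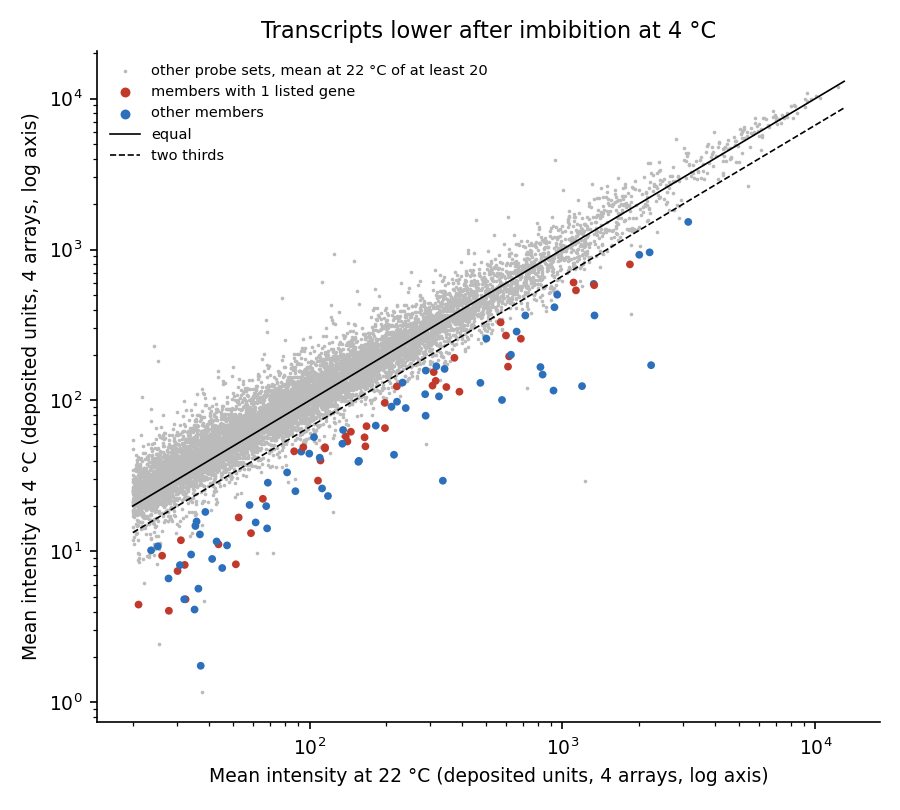
Mean deposited intensity at 22 °C (x axis) against that at 4 °C (y axis), both over 4 arrays and on log axes, for probe sets with a mean of at least 20 at 22 °C. The 107 members lie below the dashed line at 66.7%, over the whole range of means from 21.1 to 3143 at 22 °C, and the solid line marks equal means.

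Except for AT3G19360, the 10 members with the widest gap between the temperatures had no gene listed and are given by probe set. Probe set 245951_at gave 1995 and 2366.7 in Col-0 and 2114.6 and 2490.4 in 35S-GSH1 at 22 °C, against 154.5 and 187.6 in Col-0 and 179.9 and 163.3 in 35S-GSH1 at 4 °C. The 4 arrays of each temperature lay close together, and the mean was 13.1-fold lower in the cold, 171 ± 15.1 (SD, n = 4) against 2242 ± 227 (SD, n = 4). Probe set 250580_at gave 1127.5 and 1018.9 in Col-0 and 1262 and 1372.1 in 35S-GSH1 at 22 °C, against 122.6 and 114.4 in Col-0 and 139.4 and 121.7 in 35S-GSH1 at 4 °C, a 9.60-fold lower mean, and 252022_at gave 982.5 and 819 in Col-0 and 938.6 and 947 in 35S-GSH1 at 22 °C, against 138.7 and 124.5 in Col-0 and 108.8 and 93.4 in 35S-GSH1 at 4 °C, 7.92-fold lower. In 252022_at both 35S-GSH1 arrays at 4 °C were below both Col-0 arrays. Probe set 260869_at, with 38.2 and 51.7 in Col-0 and 30.4 and 28.2 in 35S-GSH1 at 22 °C, against 4.8 and 0.2 in Col-0 and 1.7 and 0.3 in 35S-GSH1 at 4 °C, had the largest ratio of means (21.2), but its values at 4 °C lie near the bottom of the scale. Probe set 257809_at stood at 418.4 and 442.3 in Col-0 and 289.1 and 196.4 in 35S-GSH1 at 22 °C, against 20.8 and 33.5 in Col-0 and 31 and 32.4 in 35S-GSH1 at 4 °C. At 22 °C its Col-0 arrays were above both 35S-GSH1 arrays, while at 4 °C the genotypes overlapped, and the ratio was 15.9 in Col-0 and 7.66 in 35S-GSH1. Probe sets 266461_at (764.8 to 898.2 at 22 °C and 123.4 to 163.3 at 4 °C), 258679_at (472.5 to 743.1 at 22 °C and 91 to 110 at 4 °C), 249384_at (669.5 to 904.4 at 22 °C and 120.3 to 202.2 at 4 °C) and 248528_at (34 to 55.9 at 22 °C and 5.6 to 10.7 at 4 °C) were 5.62-fold, 5.72-fold, 4.91-fold and 5.81-fold lower at 4 °C.

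Low-oxygen genes among the members were found with a list of 47 genes known from the response of Arabidopsis seedlings to oxygen shortage, of which 21 had a probe set and all 21 were tested. The list held 4 of the 42 named members, and only named members could match it. Across the array, 42 of the 13513 probe sets named in the same way were members. The 13513 include probe sets with a mean under 20 at 22 °C, which could not be members. Whether 4 of the 21 is many or few was not tested. HRA1 (AT3G10040), a trihelix transcription factor that restrains the oxygen-sensitive activator RAP2.12, gave 88.3 and 97.3 in Col-0 and 81.8 and 110.5 in 35S-GSH1 at 22 °C, against 38.3 and 52.2 in Col-0 and 54 and 51.5 in 35S-GSH1 at 4 °C. Its lowest value in the warm, in a 35S-GSH1 array, was 1.51 times its highest in the cold, and the mean was 1.93-fold lower at 4 °C. AT1G33055, a short low-oxygen transcript of unknown function, gave 1122 and 1409 in Col-0 and 961.4 and 1031 in 35S-GSH1 at 22 °C, against 488.4 and 461.6 in Col-0 and 638.3 and 557 in 35S-GSH1 at 4 °C. Its Col-0 arrays were the outermost ones at both temperatures, with a ratio of 2.66 in Col-0 and 1.67 in 35S-GSH1. AT4G39675, also of unknown function, gave 1988.9 and 1810.1 in Col-0 and 2087.1 and 1507.5 in 35S-GSH1 at 22 °C, against 684.1 and 884.2 in Col-0 and 944 and 675.4 in 35S-GSH1 at 4 °C. Here the genotypes overlapped at both temperatures, with a mean of 1848 ± 255 (SD, n = 4) in the warm and 797 ± 138 (SD, n = 4) in the cold. AT1G26270, a kinase of the phosphatidylinositol 4-kinase family, gave 276.8 and 262.3 in Col-0 and 313.3 and 386.7 in 35S-GSH1 at 22 °C, against 152 and 148.1 in Col-0 and 163.8 and 153.1 in 35S-GSH1 at 4 °C, and both 35S-GSH1 arrays were above both Col-0 arrays at each temperature.

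Of the other 17 tested genes of this list, 5 had met the rule and been left out by name, and the remaining 12 did not all go the same way. With limma on the mean of both genotypes, 5 of these 12 fell at 4 °C, 2 rose and 5 did not pass (Benjamini-Hochberg over 13648 probe sets, of which 7.74% were lower and 8.65% higher at 4 °C). Their median log2 difference was -0.59, against 0.0056 over all probe sets tested. AT4G27450 fell by 1.14 on the log2 scale (SE 0.12, limma adjusted p = 3.31e-05), from 4650 to 6151.8 at 22 °C to 2095.2 to 3287.3 at 4 °C. AT3G27220 fell by 1.23 (SE 0.15, limma adjusted p = 9.2e-05) and stayed outside the rule since its lowest warm value was 1.37 times its highest cold value. AT3G27220 was also among the genes named beforehand to be left out, and it is counted among the 12. The other 3 that fell, given here after their values were seen, were AT1G74940 (log2 difference -1.37), AT4G24110 (-0.68) and AT5G44730 (-0.63, limma adjusted p = 0.0237). The call of AT5G44730 was lost on the deposited scale (limma adjusted p = 0.0833), with arrays centred on their medians (0.0606) and with no filter (0.0707). It was also lost when any of 5 arrays was dropped: replicate 2 of Col-0 at 22 °C (0.0783) or at 4 °C (0.0614), replicate 1 or 2 of 35S-GSH1 at 22 °C (0.0531 and 0.0721), or replicate 1 of 35S-GSH1 at 4 °C (0.0978). PDC2, a pyruvate decarboxylase of ethanol fermentation, was higher on all 4 cold arrays, with 570.4 to 602 at 22 °C and 1016.9 to 1152.6 at 4 °C, a log2 difference of 0.90 (SE 0.11, limma adjusted p = 0.000119). AT4G10270, of the wound-responsive family, rose by 1.18 (SE 0.16, limma adjusted p = 0.000253), with 345.2 to 608.4 at 22 °C and 753.3 to 1138.9 at 4 °C. The list was written with earlier results of these arrays known, so its counts are no independent evidence of a direction.

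**Figure D2:**
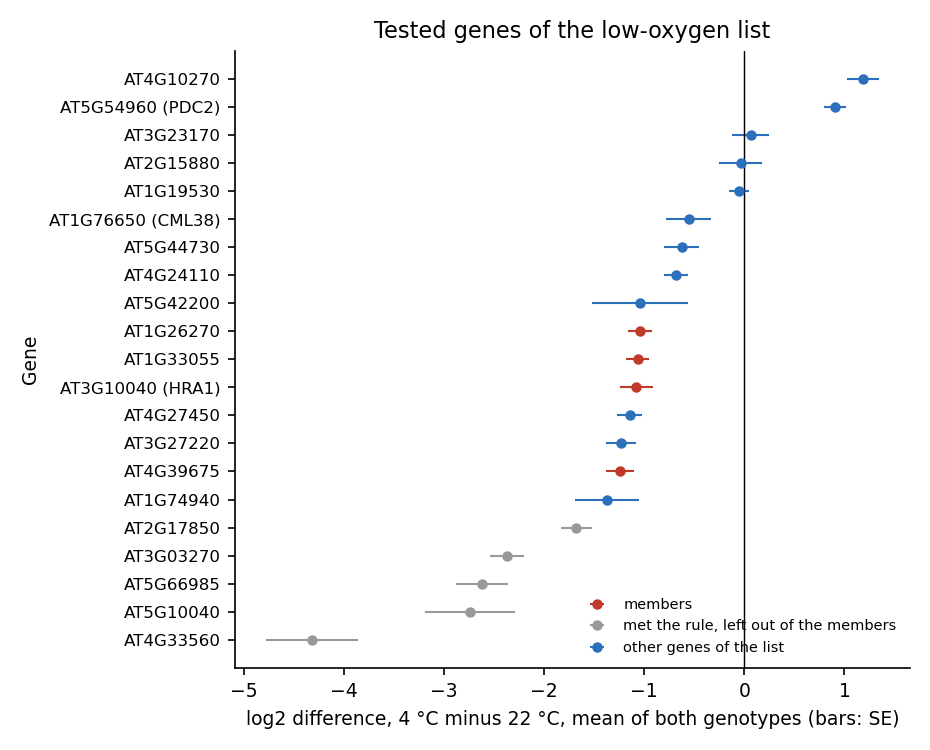
Log2 difference between 4 °C and 22 °C, mean of both genotypes, for the 21 tested genes of the low-oxygen list, with bars for the standard error of the limma fit on 8 arrays. The 4 members (red) lie between -1.24 and -1.04, below 0 as the rule requires, while 2 genes of the same list, AT4G10270 and PDC2, lie at 1.18 and 0.90.

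The other fixed lists, likewise matched only to the 42 members paired with 1 gene, held none of them. Each had at most 9 tested genes, so the absence of members says little about them. In the heat shock list HSP23.5 had met the rule and was left out by name. Of 7 tested sugar starvation and darkness genes 1 rose and 0 fell: the transcription factor gene BZIP53 (AT3G62420) went up by 1.07 on the log2 scale (SE 0.15, limma adjusted p = 0.00027). The methylcrotonyl-CoA carboxylase subunit gene MCCA had 0.39 (limma adjusted p = 0.06), SEN5 0.43 (0.0611) and the isovaleryl-CoA dehydrogenase gene IVD -0.38 (0.0721), none of which passed. Among the heat shock genes other than HSP23.5, 3 of 5 fell, and among the glutathione genes 2 of 4. Of these 3 heat shock genes 1, HSP17.6B, was also named beforehand to be left out, although it did not meet the rule. In the autophagy list 2 of 9 fell and 1 rose, and in the clock list 2 of 3 rose. Of 4 tested genes of sucrose breakdown, glycolysis and fermentation 1 fell and 2 rose. Of these 2 that rose, 1 was PDC2, already counted in the low-oxygen list. None of the 3 lipid reserve, 3 gibberellin, 2 ethylene and 1 cell wall loosening genes tested passed, and no abscisic acid and dormancy gene could be tested.

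The remaining named members are taken here by the role of their protein, an order made after their values were seen. In protein turnover, AT4G15420, of the ubiquitin fusion degradation family, gave 628.6 and 685.3 in Col-0 and 597.4 and 549.7 in 35S-GSH1 at 22 °C, against 213.4 and 188.4 in Col-0 and 205.1 and 176.6 in 35S-GSH1 at 4 °C. The highest cold value was 213.4 and the lowest warm one 549.7, a mean 3.14-fold lower. AT2G18600, a conjugating enzyme for the ubiquitin-like protein RUB, gave 132.6 to 196.9 at 22 °C and 42.4 to 53 at 4 °C (3.34-fold lower). AT5G60250, a zinc-finger protein, gave 189.1 and 291.7 in Col-0 and 161.6 and 152.4 in 35S-GSH1 at 22 °C, against 66.2 and 67.2 in Col-0 and 62.3 and 66.9 in 35S-GSH1 at 4 °C. Its cold arrays spanned only 62.3 to 67.2, while in the warm both Col-0 arrays were above both 35S-GSH1 arrays. AT3G45310, an aleurain-like vacuolar cysteine protease, gave 38.3 to 66.8 at 22 °C and 6.5 to 22.8 at 4 °C (4.44-fold lower).

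In protein synthesis, 3 genes of cytosolic ribosomal proteins were members, and their gaps between the lowest warm and the highest cold value were small, at 1.5, 1.5 and 1.58 times. How many genes of such proteins had a probe set was not counted, so it is not known whether 3 is many or few. AT2G01250, of the large subunit, gave 608.1 and 622.2 in Col-0 and 520.4 and 527.8 in 35S-GSH1 at 22 °C, against 346.4 and 329.4 in Col-0 and 309.7 and 331 in 35S-GSH1 at 4 °C, 1.73-fold lower. AT4G17390, also of the large subunit, gave 694.2 and 774 in Col-0 and 447 and 476.3 in 35S-GSH1 at 22 °C, against 298 and 291.9 in Col-0 and 282.6 and 204.8 in 35S-GSH1 at 4 °C, 2.22-fold lower. AT3G04840, of the small subunit, gave 394 and 444.8 in Col-0 and 332.5 and 324.5 in 35S-GSH1 at 22 °C, against 202.6 and 204.9 in Col-0 and 205.2 and 154 in 35S-GSH1 at 4 °C, 1.95-fold lower. Ribosomal proteins are encoded by near-identical gene copies, so a probe set may read more than its named gene. AT1G29310, of the SecY family that forms the channel for secreted proteins, gave 18.4 to 33.3 at 22 °C and 6.5 to 11.5 at 4 °C (2.79-fold lower).

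Of the members that act in the nucleus or on RNA, AT3G19360, a CCCH-type zinc-finger protein, gave 30.5 and 34.4 in Col-0 and 32.2 and 32.3 in 35S-GSH1 at 22 °C, against 4.8 and 7.3 in Col-0 and 5.8 and 1.4 in 35S-GSH1 at 4 °C. It had the widest gap of the named members, 4.18 between the lowest warm and the highest cold value, and its cold mean lay below the filter level. AT1G59660, a nucleoporin, gave 32.1 and 86.7 in Col-0 and 35.5 and 50.2 in 35S-GSH1 at 22 °C, against 5.1 and 6.7 in Col-0 and 9.4 and 11.7 in 35S-GSH1 at 4 °C. Its Col-0 replicates at 22 °C differed from each other more than the genotype means did, and the ratio was 10.1 in Col-0 and 4.06 in 35S-GSH1. LBD16, a transcription factor that acts in lateral root initiation downstream of auxin, gave 202.4 and 219.3 in Col-0 and 188.5 and 183.3 in 35S-GSH1 at 22 °C, against 111.4 and 87.4 in Col-0 and 93.9 and 93.1 in 35S-GSH1 at 4 °C and was 2.06-fold lower. AT1G60200, a splicing factor with an RNA-recognition motif, gave 107.9 and 116.6 in Col-0 and 94.9 and 122.5 in 35S-GSH1 at 22 °C, against 42.3 and 48.8 in Col-0 and 31.2 and 37.9 in 35S-GSH1 at 4 °C, 2.76-fold lower. It was the only member gene with another probe set of its own, 264218_at, which gave 217.4 and 177.7 in Col-0 and 207.7 and 176 in 35S-GSH1 at 22 °C, against 174.5 and 239.4 in Col-0 and 258.9 and 310.4 in 35S-GSH1 at 4 °C. Its mean in the cold was 1.26 times that in the warm, a difference that did not pass (log2 difference 0.25, SE 0.15, limma adjusted p = 0.295), and which part of the transcript each probe set reads is not given in the sources used here. AT1G72800, an RNA-binding protein, gave 53.4 to 75.2 at 22 °C and 18.5 to 25.7 at 4 °C (2.93-fold lower).

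A further group held enzymes of oxidation, reduction and conjugation. AT5G16980, related to an alkenal reductase, gave 313 and 404.3 in Col-0 and 318.6 and 354.4 in 35S-GSH1 at 22 °C, against 100.2 and 130 in Col-0 and 126.7 and 134.3 in 35S-GSH1 at 4 °C, 2.83-fold lower. AT3G44190, a flavin-dependent oxidoreductase, gave 700.2 and 592.3 in Col-0 and 613.1 and 531.2 in 35S-GSH1 at 22 °C, against 138.2 and 231.4 in Col-0 and 153.1 and 147.5 in 35S-GSH1 at 4 °C, 3.64-fold lower. In AT3G44190 1 cold array, Col-0 replicate 2, stood above the other 3. AT5G64250, of the nitropropane dioxygenase family, gave 1011.2 to 1496 at 22 °C and 550.5 to 616.3 at 4 °C, and AT3G28480, of the prolyl 4-hydroxylase family, whose enzymes use oxygen to modify cell wall proteins, gave 89.8 to 131.6 at 22 °C and 21 to 37 at 4 °C (3.66-fold lower). UGT73B4, a glycosyltransferase that acts on small molecules, gave 52.9 and 62.3 in Col-0 and 43.9 and 50.7 in 35S-GSH1 at 22 °C, against 16.8 and 13.8 in Col-0 and 25.5 and 11.1 in 35S-GSH1 at 4 °C, 3.12-fold lower. Outside this grouping, 253268_s_at, with 60.7 to 123.7 at 22 °C and 19.2 to 34.8 at 4 °C, was paired with several genes. It is not named and no role is given to it. AT2G37240, a thioredoxin-fold protein, was 2.61-fold lower, and AT5G07870, of an acyltransferase family, 3.94-fold lower.

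In central metabolism, AT5G56350, a pyruvate kinase of the last step of glycolysis, gave 203.4 and 144.6 in Col-0 and 163.3 and 148.7 in 35S-GSH1 at 22 °C, against 81.8 and 63.4 in Col-0 and 39.6 and 43.3 in 35S-GSH1 at 4 °C. Its mean was 2.89-fold lower, and at 4 °C both 35S-GSH1 arrays were below both Col-0 arrays. AT3G13930, a subunit of the mitochondrial pyruvate dehydrogenase complex, which carries pyruvate into the citric acid cycle, gave 147.9 and 118.1 in Col-0 and 156.9 and 159.9 in 35S-GSH1 at 22 °C, against 47.4 and 65.2 in Col-0 and 76.7 and 59 in 35S-GSH1 at 4 °C, 2.35-fold lower. AT4G24160, a hydrolase-family protein of lipid metabolism whose loss leads to lipid droplets in leaves, gave 554.8 and 765.7 in Col-0 and 608.8 and 809.6 in 35S-GSH1 at 22 °C, against 236.7 and 269.1 in Col-0 and 236 and 284.2 in 35S-GSH1 at 4 °C, 2.67-fold lower. AT1G10050, a xylanase of the cell wall, gave 26.9 and 36.9 in Col-0 and 34.2 and 22.3 in 35S-GSH1 at 22 °C, against 7 and 0.6 in Col-0 and 13 and 9.1 in 35S-GSH1 at 4 °C. The ratio was 8.39 in Col-0, where 1 cold array stood at 0.6, and 2.56 in 35S-GSH1. AT3G29970, of the B12D family, named from a barley transcript, gave 17 to 27.4 at 22 °C and 3.3 to 7.6 at 4 °C (4.74-fold lower), with its cold mean below the filter level.

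Signalling members included AT4G18950, a protein kinase of the integrin-linked family, with 147.7 to 193.1 at 22 °C and 59.8 to 74 at 4 °C (2.49-fold lower), and AT2G27580, a zinc-finger protein of the stress-associated family. AT2G27580 gave 325.8 and 321.8 in Col-0 and 299.5 and 314.1 in 35S-GSH1 at 22 °C, against 116.2 and 107.7 in Col-0 and 156.6 and 159.2 in 35S-GSH1 at 4 °C. The warm arrays agreed within 299.5 to 325.8, with Col-0 above 35S-GSH1, and in the cold both 35S-GSH1 arrays were above both Col-0 arrays. AT4G14420, related to a protein that induces lesions, gave 86.9 to 148.3 at 22 °C and 37.6 to 56.6 at 4 °C, and AT3G09570, a membrane protein with several predicted transmembrane spans, 205.4 to 240.5 at 22 °C and 117.2 to 132.5 at 4 °C. The named members whose role is not given here were AT1G10140 (3.42-fold lower), AT3G15770 (6.86-fold, with its cold mean below the filter level), AT1G17360 (3.91-fold), AT3G56360 (2.64-fold), AT4G33666 (2.44-fold), AT1G52420 (2.41-fold), AT1G66080 (2.35-fold), AT5G27860 (1.89-fold) and AT5G10695 (1.83-fold). By the order of genes in the RefSeq table of TAIR10.1, none of the 42 members with 1 listed gene were direct neighbours. Among these 42, 1 pair, AT1G10050 and AT1G10140, lay within 20 genes of each other, with 11 genes between them. The other 65 members could not be placed.

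**Figure D3:**
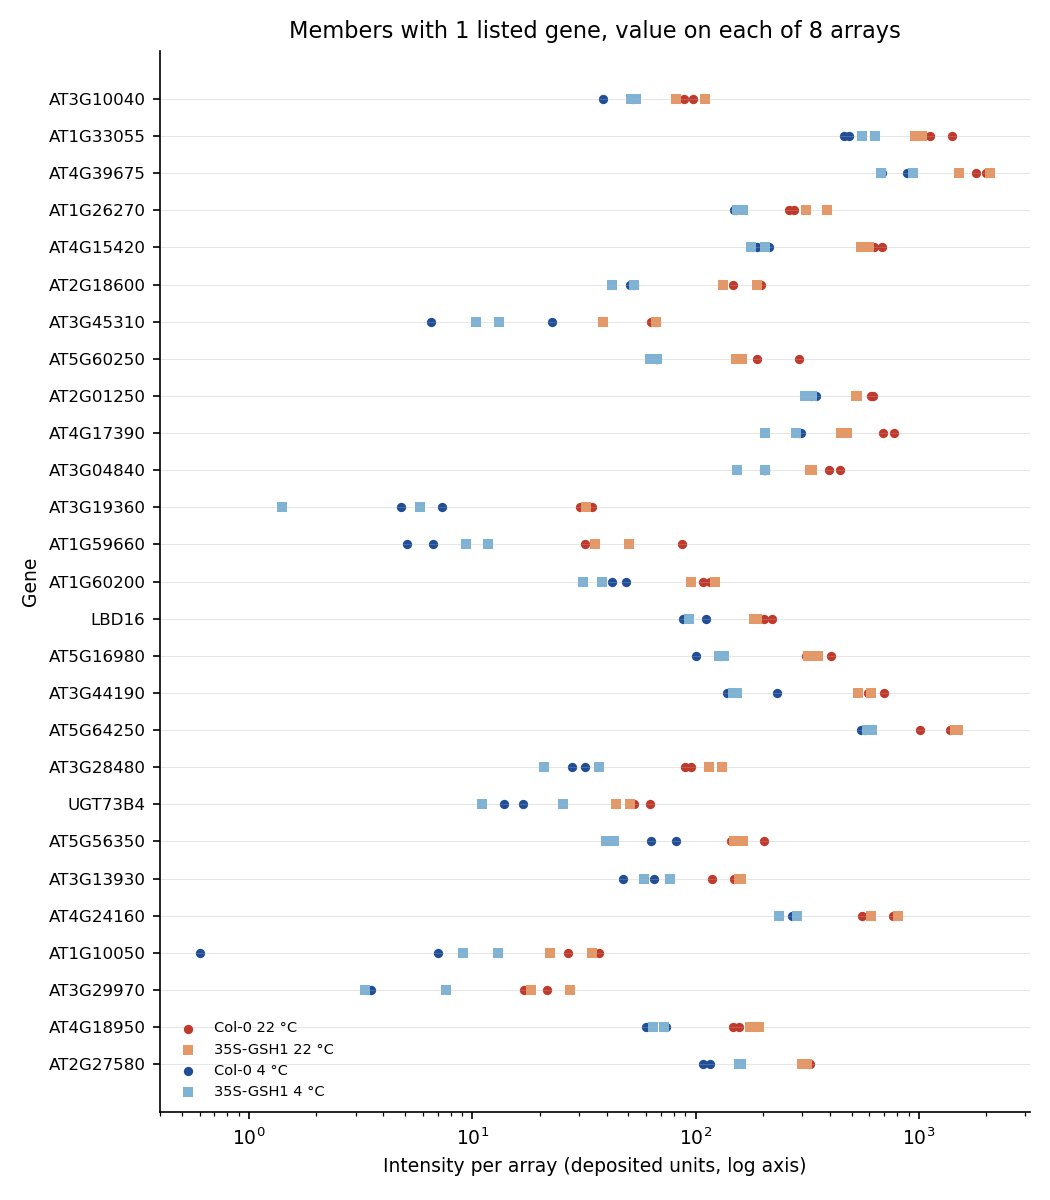
Deposited intensity on each of the 8 arrays (x axis, log scale) for 27 members with 1 listed gene, picked by hand from those described in the text. There is 1 point per array, with circles for Col-0, squares for 35S-GSH1, red shades for 22 °C and blue shades for 4 °C. The red and blue points do not overlap for any gene, as the rule requires, and the distance between them varies from 1.5 times in AT4G17390 to 4.18 times in AT3G19360.

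The members just inside the rule were AT4G17390, with its highest cold value at 66.7% of its lowest warm value, AT2G01250 at 66.6% and AT5G10695 at 66.5%. Just outside were 262911_s_at at 67.1%, AT3G18940 at 67.8% and AT2G31410 at 67.9%. A further 31 probe sets kept the gap with a mean under 20 at 22 °C and were not members. The members with the highest intensities at 22 °C included 247655_at (2873.3 to 3517.4 at 22 °C and 1213.9 to 1857.9 at 4 °C), 251975_at (1885.4 to 2433.6 at 22 °C and 835.1 to 1034.6 at 4 °C), 263921_at (1876.3 to 2148.2 at 22 °C and 789.2 to 1055.1 at 4 °C), 260847_s_at (1240.3 to 1505.1 at 22 °C and 308.9 to 392.8 at 4 °C) and 266296_at (1262.4 to 1412.6 at 22 °C and 536.1 to 645.3 at 4 °C), none with a listed gene.

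The rule was then applied to each genotype alone, since the arrays of one genotype play no part in a choice made on the other. On the 4 Col-0 arrays it chose 290 probe sets after the left-out ones were removed, and on the 4 35S-GSH1 arrays 235. The lists shared 127 probe sets, which is 43.8% of the Col-0 list and 54.0% of the 35S-GSH1 list. Before removal, the rule was met by 3% of the probe sets with a sufficient mean in Col-0 and by 2.48% in 35S-GSH1. In 261 of the 290 Col-0 choices both 35S-GSH1 arrays at 4 °C were below both at 22 °C, which held for 18.6% of the 10088 probe sets that reached a mean of 20 in Col-0 seeds at 22 °C. In 208 of the 235 35S-GSH1 choices both Col-0 arrays at 4 °C were below both at 22 °C, which held for 20.6% of 9956 probe sets. These counts describe the arrays and were not tested.

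Within the 107 members the ratio of the warm to the cold mean had a median of 2.84 in Col-0 and 2.75 in 35S-GSH1. The rule asks for the gap on all 8 arrays, so both genotypes had to differ by at least 1.5 times and their likeness among the members is largely fixed by it. The ratio was larger in Col-0 for 59 members and larger in 35S-GSH1 for 48, and for 85 members the genotypes were within 1.5 times of each other.

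**Figure D4:**
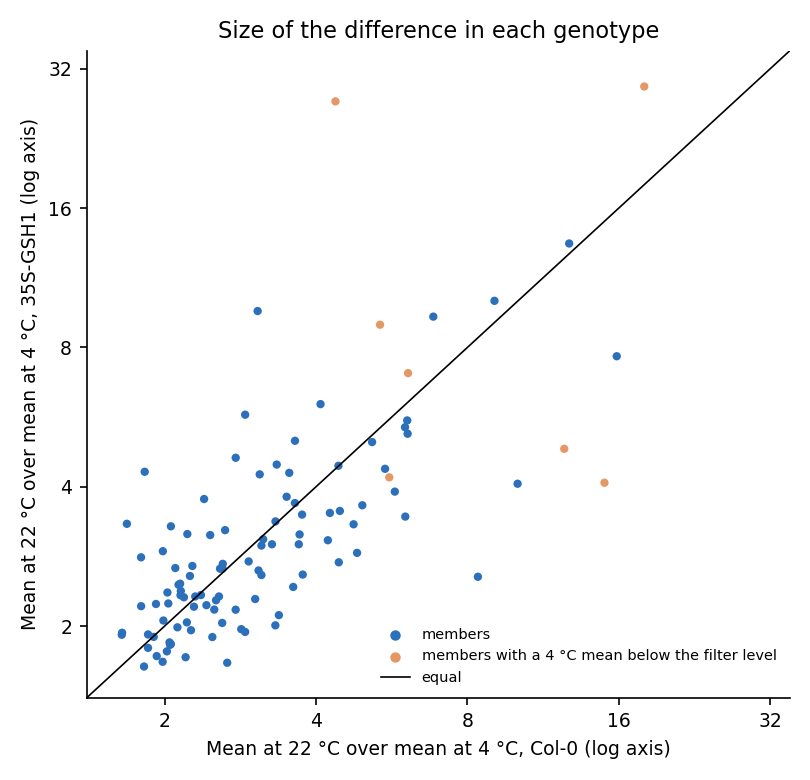
Ratio of the mean at 22 °C to the mean at 4 °C in Col-0 (x axis) and 35S-GSH1 (y axis), deposited intensities, 2 arrays per group, log axes, 1 point per member. The rule keeps every point at a ratio of at least 1.5 on both axes, 85 of the 107 members lie within 1.5 times of equal ratios, and the 7 members with a cold mean below 6.26 are in orange.

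The genotypes were compared with limma over all probe sets. The rule takes the lowest warm and the highest cold array of both genotypes together, so a gap between the genotypes at either temperature works against membership. The members' counts below are therefore a description and no independent test. Their shares at an unadjusted p under 0.05 were nevertheless above those over all probe sets in each comparison. The probe sets behind those shares were not matched to the members in intensity, and the reason for the excess was not tested. At 22 °C, 0 of the 107 members passed (smallest limma adjusted p = 0.834, n = 2 per group), as did 0% of the 13648 probe sets tested. The median log2 difference of the members, 35S-GSH1 minus Col-0, was -0.04 (median SE of a member 0.22), against 0.0025 over all probe sets, and 44 members were above 0 and 63 below. At an unadjusted p under 0.05 there were 10 members (9.35%), 4 higher and 6 lower in 35S-GSH1, beside 5.71% of all probe sets. The members with the smallest unadjusted p were 259224_at (log2 difference -0.86, SE 0.24, 238.4 and 324.6 in Col-0 and 164.7 and 135.2 in 35S-GSH1), AT4G17390 (-0.62, SE 0.17) and 257809_at (-0.83, SE 0.26). In each of these 3 both Col-0 arrays were above both 35S-GSH1 arrays, which largely follows from choosing them by that p. How often the 2 genotypes separate in this way over all probe sets was not counted, here or for the members described above. The value of 257809_at was -0.55 without 35S-GSH1 replicate 2 at 22 °C.

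At 4 °C, again 0 of the 107 members passed (smallest limma adjusted p = 1, n = 2 per group), as did 0% of all probe sets. The median log2 difference was -0.02, against 0.00065 over all probe sets, with 48 members above 0 and 59 below. At an unadjusted p under 0.05 there were 9 members (8.41%), 3 higher and 6 lower, beside 3.22% of all. Probe set 255500_at had -2.28 (SE 0.60), with 7.5 and 9.9 in Col-0 and 0.8 and 1.1 in 35S-GSH1. These levels are close to the lowest that the arrays gave, and with a pseudocount of 16 the value was -0.54. The pyruvate kinase gene AT5G56350 had -0.79 (SE 0.22), and 265621_at had -1.67 (SE 0.50), with 15.9 and 11.3 in Col-0 and 1.4 and 7.1 in 35S-GSH1. The value of 265621_at turned on single arrays, at -0.68 without 35S-GSH1 replicate 1 at 4 °C and -2.66 without replicate 2, and it was -0.52 with a pseudocount of 16.

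The interaction asked whether the temperature difference of a member was of another size in 35S-GSH1 than in Col-0. With limma 0 of 107 members passed (smallest limma adjusted p = 0.9996), as did 0% of all probe sets, and at an unadjusted p under 0.05 there were 11 members (10.3%), 6 above 0 and 5 below, beside 3.32% of all. The median was 0.02, against -0.00062 over all probe sets. Probe sets 257809_at (its ratios are given above) and 253051_at (1.86, SE 0.68) and the low-oxygen gene AT1G33055 (0.63, SE 0.24) had the smallest unadjusted p. A positive value here is a smaller drop in 35S-GSH1, and 253051_at, with 45.6 and 54.8 in Col-0 and 12.8 and 27.2 in 35S-GSH1 at 22 °C, against 4.5 and 2.2 in Col-0 and 6 and 3.8 in 35S-GSH1 at 4 °C, had cold values near the bottom of the scale and a value of 1.04 with a pseudocount of 16. The value of AT1G33055 was 0.42 without Col-0 replicate 2 at 22 °C, and that of 257809_at 0.71 without Col-0 replicate 1 at 4 °C. With 2 arrays per group the median half-width of a 95% interval over all probe sets was 0.52 log2 units for a genotype difference and 0.74 for the interaction. These intervals are not adjusted for the 13648 probe sets, and a call after adjustment takes a larger difference, so a count of 0 does not show that the genotypes were alike. The count of members past the threshold was 0 in each of the 3 comparisons under all alternatives run.

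**Figure D5:**
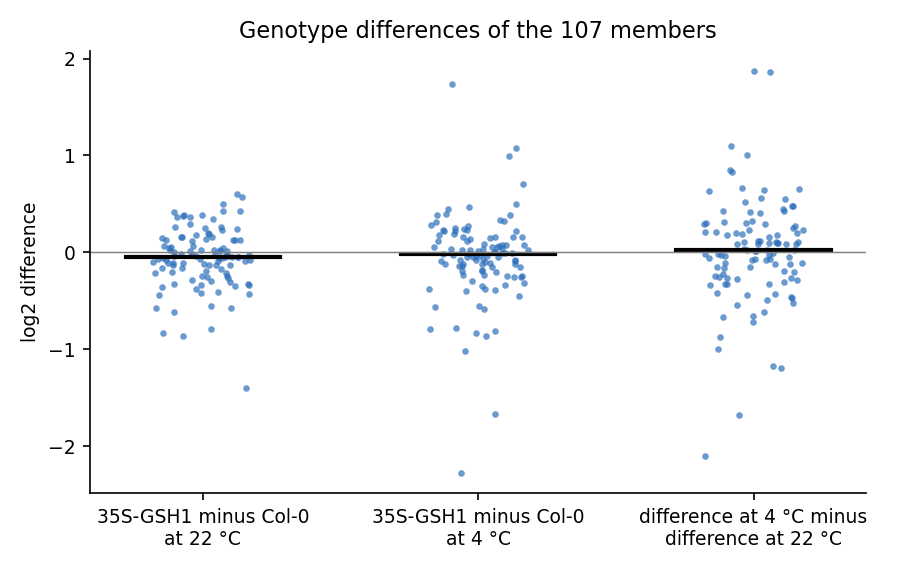
Log2 difference of each of the 107 members between 35S-GSH1 and Col-0 at 22 °C, between them at 4 °C, and the interaction (the second minus the first), from the limma fit, with black bars for the medians. The medians of -0.04, -0.02 and 0.02 lie close to 0, and no point passed the test.

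The replicate arrays bound how finely the members can be read. The median ratio between the replicates of a member was 1.19 in Col-0 at 22 °C, 1.12 in 35S-GSH1 at 22 °C, 1.22 in Col-0 at 4 °C and 1.16 in 35S-GSH1 at 4 °C. In Col-0 at 4 °C 65 members were higher on replicate 2 and 42 on replicate 1, and in the other groups the split was between 51 and 56.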

How the data were processed

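Per the labels, total RNA of imbibed seeds was labelled and hybridised to 8 single-colour Affymetrix arrays, 1 per sample. The authors deposited a linear intensity for each probe set and array, and the submitters' processing notes name GCOS, the manufacturer's software. Neither its version nor how it summarised and scaled the probes is given there.

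The rule for the members was applied to the deposited intensities. For the tests, the arrays were quantile normalized and values analysed as log2(intensity + 1), so a log2 difference is too small for dim transcripts. The lowest 40% of probe sets by mean log2 value (under 2.86, an intensity of 6.26) were not tested, but every member was. The test was limma 3.58.1 in R 4.3.3, with 1 coefficient per group on 8 arrays, 4 residual and 9.93 prior degrees of freedom, an intensity trend and two-sided p-values adjusted by Benjamini-Hochberg over 13648 probe sets at a threshold of 0.05. The fit was also run on simulated data, where it missed some of the changes put in and made some false calls. Ratios of means are on the deposited scale. Precision is limited by the number of arrays.

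Genes were named from a probe set table for the platform, only where it lists 1 gene. Locus codes came from the RefSeq table of assembly TAIR10.1, to which all 42 named members matched. Gene order was taken from it and no coordinates. Promoter and protein sequences were not used here, so the planned motif counts were not made. A list gene was represented by its tested probe set with the highest mean.

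The members and the 12 gene lists were chosen with earlier results of these data known. Named were the members with the 10 widest gaps between the lowest warm and highest cold value, the 10 with the highest warm mean, the 20 named ones with the widest gaps, those in a list or with a gene symbol, the 3 with the smallest unadjusted p in each genotype comparison, and the 3 on each side of the rule. Outside the members, up to 4 genes of the low-oxygen and sugar starvation lists were named. Further members are named by role, after their values were seen. Alternatives were other scalings, pseudocounts, filters and moderations, other cuts of the rule, the replicate number as a block, and leaving out each array.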

Additional observations from a re-analysis of the deposited data

How the results depend on the processing

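The count of members depended on the cut: 42 probe sets met it at 50% and 245 at 80%. It was 146 after quantile normalization and 156 after scaling to a common median, with 103 and 101 of the 107 members among them, and 115 to 138 when 1 array was left out. The genotype comparisons at 22 °C and 4 °C and the interaction called 0 members under all alternatives, including each array left out (0 to 0). The replicate number as a block also gave 0 in each, and a count of 6 lower and 2 higher among the other low-oxygen genes. With the block the smallest limma adjusted p of the members was lower than in the main fit in each comparison. Deviations of same-numbered arrays correlated with r of 0.051 to 0.143 between groups, positive in all 6 pairs and under 0.1 in 3. The median intensity of the array was also higher on replicate 1 in each group. At 4 °C it was 16.2 against 13.2 in Col-0 and 16.1 against 13.3 in 35S-GSH1. The main fit did not use the numbers as pairing, and whether they mark a shared batch was not tested. The median genotype difference of the members ranged from -0.08 to 0.0038 at 22 °C, from -0.10 to 0.03 at 4 °C and from -0.08 to 0.07 for the interaction. The number of other low-oxygen genes that fell was 4 to 6 and that rose 2, in settings added after the data were seen. Among the sugar starvation genes, SEN5 and MCCA, higher at 4 °C, and IVD, lower at 4 °C, passed in some of these settings and not in the main fit. The share of the Col-0 list also chosen in 35S-GSH1 was 43.7% at a cut of 80% and 47.6% after quantile normalization. The cause of these shifts was not tested.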
